A study of Mus musculus with 4 samples.

Results

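The 10 genes described here belong to the synaptotagmin family of vesicle proteins and are Syt1, Syt2, Syt3, Syt4, Syt5, Syt6, Syt7, Syt9, Syt11 and Syt13. They were taken by symbol from the platform annotation of the array, which gave each of them 1 feature (probe set) of its own, so all 10 were measured, among 22431 features and 18920 genes. The cells came from dissected retinas of BAC-Crx-EGFP mice on the 129Sv/Ev background at embryonic stage E17.5 and were sorted into an EGFP-positive fraction (2 arrays) and an EGFP-negative fraction (2 arrays). Both fractions therefore carried the same transgene, in which a bacterial artificial chromosome places enhanced green fluorescent protein under the regulatory sequences of the photoreceptor gene Crx. The labels give no number of animals, litters or sorts behind a sample, so a p-value here reflects sample-to-sample spread that could be technical. The study set out to find what distinguishes Crx-reporter cells, which include cone precursors, from the remaining retinal cells.

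Synaptotagmins are membrane proteins of secretory and synaptic vesicles that carry tandem C2 domains. In the best known of them these domains bind calcium and membrane lipids and, together with the SNARE proteins, couple calcium entry to vesicle fusion. Photoreceptors release glutamate continuously from ribbon synapses, and in mice Syt1 is known as a calcium sensor of their vesicle release. Not every family member senses calcium in this way. Syt4 and Syt11 carry a substitution at a calcium-binding aspartate of the first C2 domain, and Syt13 lacks most of the calcium-binding residues.

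The positive fraction carried the markers of photoreceptor precursors. Of 15 such genes 11 rose in the positive fraction (limma adjusted p under 0.05), against 0.82% of all features. They were led by Rbp3, Cngb3, Crx and Cdhr1 with log2 differences of 4.37, 4.08, 3.66 and 3.64. The cells were sorted by a Crx reporter, so the rise of Crx is not independent of the sort. The list was also chosen with earlier results of these data known. The recoverin gene Rcvrn, a marker of maturing photoreceptors chosen after its values were seen, read 104.2 and 76.8 in positive cells, against 88.2 and 76.3 in negative cells. Of 14 progenitor markers 1 fell past that threshold, Sox2 (log2 difference -1.36 ± 0.10, SE, limma adjusted p = 0.0119). The list as a whole lay lower in positive cells, with 12 of 14 differences below 0 and a median of -0.81. At an unadjusted p under 0.05 limma took 9 of the 14, all lower, against 19.2% of all features. Values are linear intensities, and the median over all features ran from 218.4 to 222.9 on the 4 arrays. In sorted bulk samples, fewer cells of a type and less RNA per cell cannot be told apart.

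None of the 10 synaptotagmin genes passed the test between the fractions. The share called over all features was 0.963% (216 of 22431, limma, Benjamini-Hochberg adjusted p under 0.05), so that a count of 0 among 10 genes is near the background. At an unadjusted p under 0.05 limma took 1 of the 10, Syt1, against 19.2% of all features. The 4 arrays separated the fractions without overlap for 2 of the 10 genes, Syt1 (positive above negative) and Syt11 (positive below negative), against 47.6% of all features, 22.3% above and 25.3% below. The median log2 difference, positive minus negative, was 0.11 over the 10 genes and -0.01 over all features, and 8 of the 10 differences were above 0 (that of Syt5 barely so), against 47.8% of all features.

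**Figure D1:**
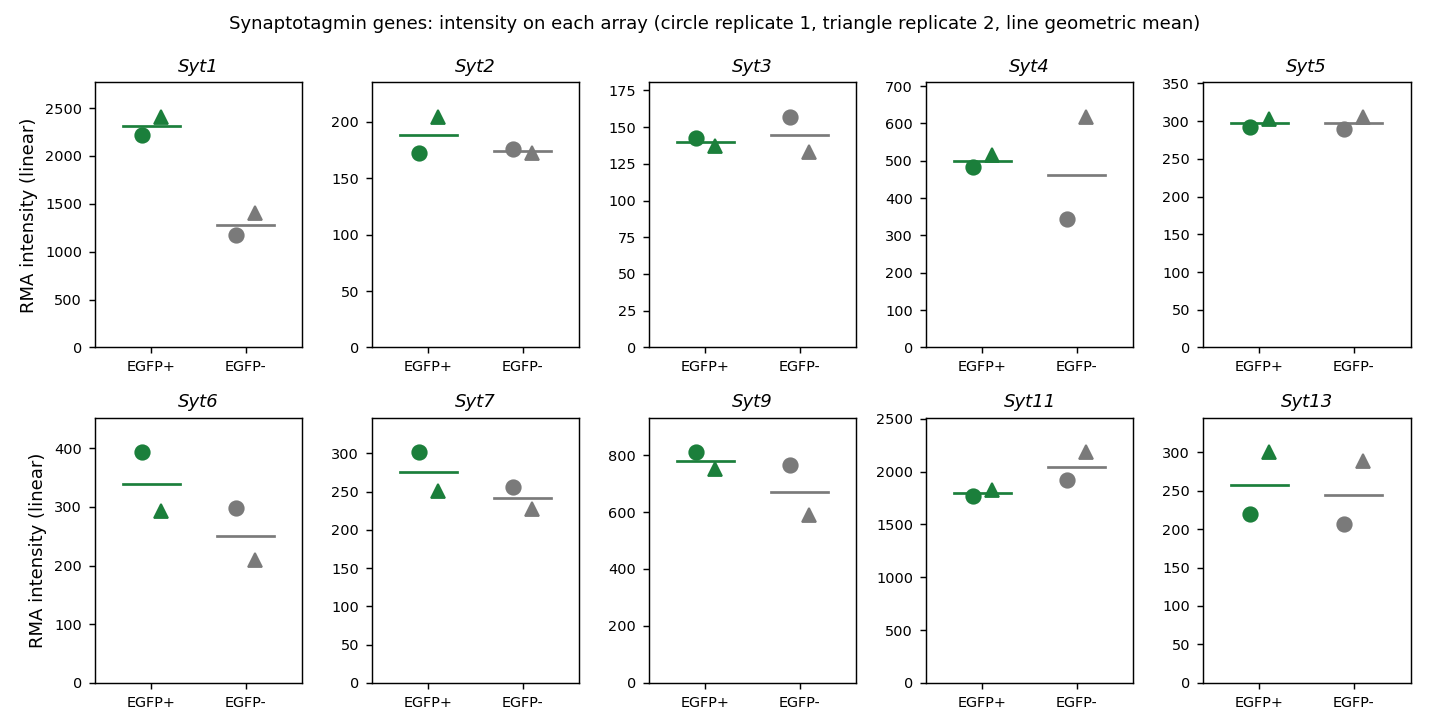
Linear RMA intensity of each synaptotagmin gene (1 panel per gene, each with its own axis from 0) in EGFP-positive (green, left) and EGFP-negative cells (grey, right). Circles are replicate 1, triangles replicate 2 and lines geometric means of the 2 arrays. Both positive arrays of Syt1 lie above both negative arrays, both of Syt11 lie below, and the fractions overlap in the other 8 panels.

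Syt1 encodes the fast calcium sensor of synchronous transmitter release in many neurons. It had the largest difference of the 10 genes, reading 2214.0 and 2407.9 in positive cells, against 1169.9 and 1406.2 in negative cells. As log2 intensity this was 11.17 ± 0.09 in positive cells and 10.32 ± 0.19 in negative cells (SD, n = 2 arrays each). The fold between the fractions was 1.80 (95% interval 1.43 to 2.27, on the linear scale), and the log2 difference was 0.85 ± 0.13 (SE, limma adjusted p = 0.0673, unadjusted p = 0.00111), which did not pass the threshold. Without positive replicate 1 the log2 difference was 0.91 and passed (limma adjusted p = 0.0401). Over 12 alternative settings the adjusted p ran from 0.00978 to 0.334, and the log2 difference from 0.72 to 0.98.

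The bases upstream of Syt1 are shown because it is the member with the largest difference in cells sorted by the activity of Crx regulatory sequences, and those of Syt11 because its arrays separated in the other direction. RefSeq (GRCm38.p6) gave a promoter entry for 6 of the 10 genes, with 10 start sites in all. Syt4, Syt5, Syt7 and Syt13 had no entry. The Syt1 gene lies on the minus strand of chromosome 10, with windows of 250 bases before its start sites at chr10:109010976-109011225 and chr10:109009112-109009361. The Syt11 window is chr3:88772600-88772849, also on the minus strand. Each sequence runs 5′ to 3′ on the strand of the gene, and capitals mark matches to the E-box CANNTG, the core bound by proneural factors such as Neurod1.
Syt1, upstream start: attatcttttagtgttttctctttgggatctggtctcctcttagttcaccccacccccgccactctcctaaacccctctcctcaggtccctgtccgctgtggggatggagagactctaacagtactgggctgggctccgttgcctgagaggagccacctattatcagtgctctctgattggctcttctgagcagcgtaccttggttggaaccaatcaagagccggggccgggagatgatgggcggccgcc
Syt1, downstream start: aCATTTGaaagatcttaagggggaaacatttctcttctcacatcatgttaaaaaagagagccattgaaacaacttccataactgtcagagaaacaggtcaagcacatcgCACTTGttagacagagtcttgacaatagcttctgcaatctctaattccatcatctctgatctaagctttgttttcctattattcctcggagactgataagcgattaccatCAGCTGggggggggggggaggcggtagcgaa
Syt11: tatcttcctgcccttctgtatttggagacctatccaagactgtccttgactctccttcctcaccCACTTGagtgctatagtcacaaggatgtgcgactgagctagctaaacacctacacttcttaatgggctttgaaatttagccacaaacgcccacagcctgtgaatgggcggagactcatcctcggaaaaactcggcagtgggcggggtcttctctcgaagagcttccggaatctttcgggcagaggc

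The upstream window of Syt1 held no E-box, its downstream window held 3 and the Syt11 window held 1. Over the 10 start sites of the 6 genes, 7 windows held at least 1 E-box, against 66.2% of the 32851 windows in the RefSeq table. The core of Crx and Otx2 sites, TAATCC, was searched on both strands and was in 0 of the 10 windows, against 6.25% of all windows. The GC box GGGCGG was in 8 of the 10, against 32.7%. The windows were also richer in G and C than the median of all windows, 52.4%. The exceptions were those of Syt11 (51.2%) and of the downstream start of Syt1 (42.8%). The 3 motifs do not contain one another. Of the 10 windows, 3 belong to Syt6 and 2 each to Syt1 and Syt2, and the first 2 windows of Syt6 overlap, so they are not independent. Matches are a description of the letters, and no binding was measured here.

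Syt2, which acts as a fast sensor beside Syt1 in other neurons such as those of the hindbrain, read 172.9 and 204.5 in positive cells, against 175.9 and 172.3 in negative cells. The fractions overlapped, and the log2 difference was 0.11 ± 0.12 (SE, limma adjusted p = 0.733). Its 95% interval, from -0.20 to 0.42, lies within a 2-fold change in either direction. Syt2 and Syt3 were the members whose mean log2 intensity lay below the median of all features, and none lay below the 25th percentile.

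The names Syt5 and Syt9 have been used for each other's proteins in the literature, and the symbols here are those of the array annotation. Syt5 read 292.0 and 302.9 in positive cells, against 289.3 and 305.6 in negative cells. These 4 values interleave, and the log2 difference was 0.00 with the narrowest interval of the 10 genes, from -0.25 to 0.26. Syt9 read 809.9 and 752.6 in positive cells, against 764.3 and 589.5 in negative cells. The negative arrays of Syt9 differed more between themselves than the fractions did, and its log2 difference was 0.22 ± 0.15 (SE, limma adjusted p = 0.552).

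Syt7 encodes a slower sensor of high calcium affinity, known from asynchronous release and from the fusion of lysosomes with the cell surface. It read 301.5 and 251.4 in positive cells, against 255.7 and 227.6 in negative cells. The higher array of the negative fraction lay just above the lower array of the positive one, and the log2 difference was 0.19 ± 0.14 (SE, limma adjusted p = 0.557).

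Syt3 and Syt6 belong to a branch of the family whose proteins form dimers through disulfide bonds. Syt6, best known from the acrosome reaction of sperm, read 393.1 and 292.8 in positive cells, against 298.8 and 209.5 in negative cells. Its log2 difference of 0.44 ± 0.23 was the second in size (SE, limma adjusted p = 0.388), and its 95% interval ran from -0.13 to 1.01. The replicates of each fraction were about as far apart as the fractions, with SDs of log2 intensity of 0.30 in positive and 0.36 in negative cells. Syt3, which in mice takes part in the calcium-dependent uptake of AMPA receptors, read 142.4 and 137.0 in positive cells, against 156.9 and 133.3 in negative cells. Both positive values of Syt3 lie between the negative ones, and its log2 difference was -0.05 ± 0.12 (SE, limma adjusted p = 0.905).

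Among the members with altered calcium-binding sites, Syt11 was the 1 whose fractions did not overlap. Syt11, known as an inhibitor of endocytosis in neurons, read 1773.4 and 1823.8 in positive cells, against 1916.4 and 2182.5 in negative cells. Both positive arrays were lower, by a log2 difference of -0.19 ± 0.11 that did not pass the threshold (SE, limma adjusted p = 0.473; 95% interval -0.47 to 0.10). Syt4, which is induced by neuronal activity and found on dense-core vesicles, read 482.5 and 515.6 in positive cells, against 344.6 and 617.4 in negative cells. The negative arrays bracketed the positive ones, with an SD of log2 intensity of 0.59, the highest of the 10 genes in either fraction. The log2 difference of Syt4 was 0.11 ± 0.28 (SE, limma adjusted p = 0.906), and it was 0.53 without negative replicate 2 and -0.31 without negative replicate 1. Syt13, known from endocrine precursors of the pancreas, read 220.2 and 299.9 in positive cells, against 206.6 and 289.2 in negative cells. Its log2 difference was 0.07 ± 0.22 (SE, limma adjusted p = 0.930), and it turned to -0.17 without negative replicate 1 and to -0.15 without positive replicate 2. It was 0.30 without positive replicate 1 and 0.31 without negative replicate 2.

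**Figure D2:**
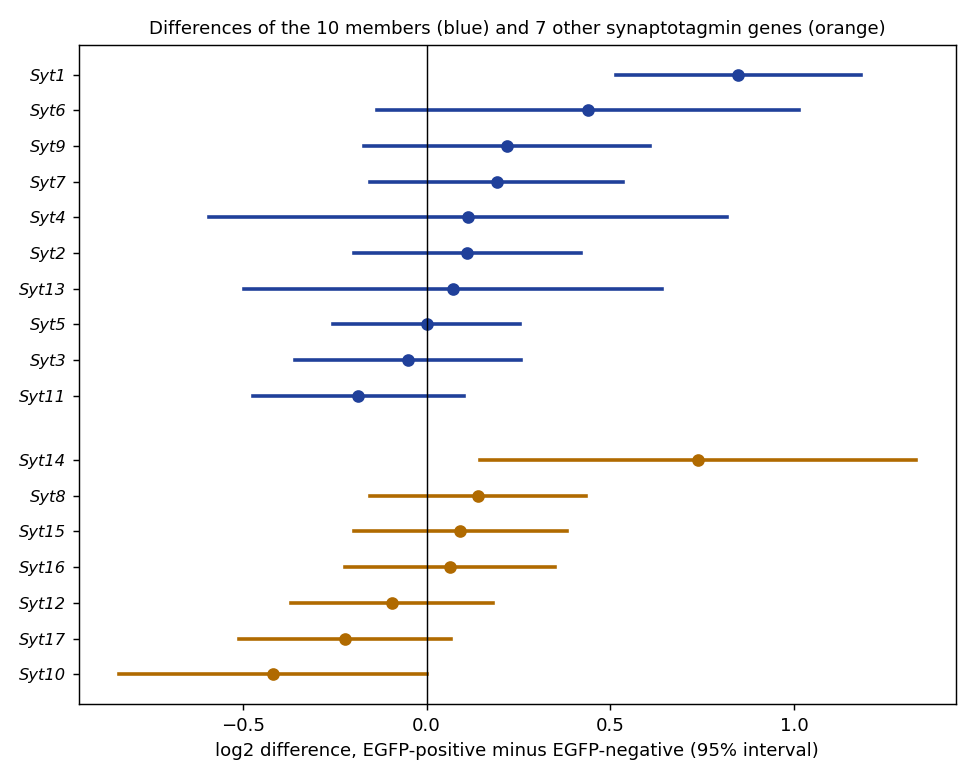
Log2 difference, EGFP-positive minus EGFP-negative, of the 10 members (blue) and the 7 other synaptotagmin genes (orange), with the 95% interval of limma as a line. Among the members the interval of Syt1 alone lies wholly above 0 before adjustment, from 0.51 to 1.18, and 8 of the 10 intervals lie within 1 on the log2 scale in either direction.

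The intervals bound what these arrays leave room for. For 8 of the 10 genes the 95% interval, not adjusted for the number of features, lay within a 2-fold change either way, and the exceptions were Syt1 and Syt6. The smallest difference called among all features was 0.75 in size on the log2 scale, a size below the 0.85 of Syt1 and above the differences of the other 9 genes. With each array left out in turn the log2 difference ran from 0.18 to 0.70 for Syt6, from 0.060 to 0.32 for Syt7, from 0.031 to 0.41 for Syt9 and from -0.28 to -0.092 for Syt11. A p that misses the threshold does not show that the fractions were alike.

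Several members differed more between replicates than between fractions. Syt13 was higher on the replicate 2 array of both fractions, by 0.45 in positive and 0.49 in negative cells on the log2 scale, and Syt4 by 0.10 and 0.84. Syt1, Syt5 and Syt11 were higher there by at most 0.27. Syt6 was lower on the replicate 2 array of both fractions (log2 differences of -0.42 in positive and -0.51 in negative cells), and Syt3, Syt7 and Syt9 were lower by smaller amounts. Altogether 5 of the 10 genes were higher on both replicate 2 arrays, against 29% of all features, and 4 of the 10 were lower on both, against 32.4%.

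Ganglion cell markers differed between the same arrays. Of 15 such genes 13 were higher on the replicate 2 array of both fractions, against 29% of all features. Their median log2 differences were 0.74 in positive and 1.14 in negative cells. Their summed intensity was 6301.9 and 10935.3 in positive cells, against 4856.6 and 10748.8 in negative cells. No marker was at 0, but neither was any other feature (lowest value 18.9), so this does not show detection. None of the 15 was called between the fractions by limma, against 0.963% of all features. At an unadjusted p under 0.05 limma took 1, against 19.2% of all features. The 2 largest log2 differences between the fractions were 1.19 for Isl2 and 0.67 for Slc17a6. Progenitor markers ran the other way, with 10 of 14 lower on the replicate 2 array of both fractions, against 32.4% of all features. Of the 14, 2 were higher on both, against 29%. Their median log2 differences were -0.67 in positive and only -0.09 in negative cells. The part of either list in the replicate differences of Syt4, Syt13 or Syt6 was not tested.

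**Figure D3:**
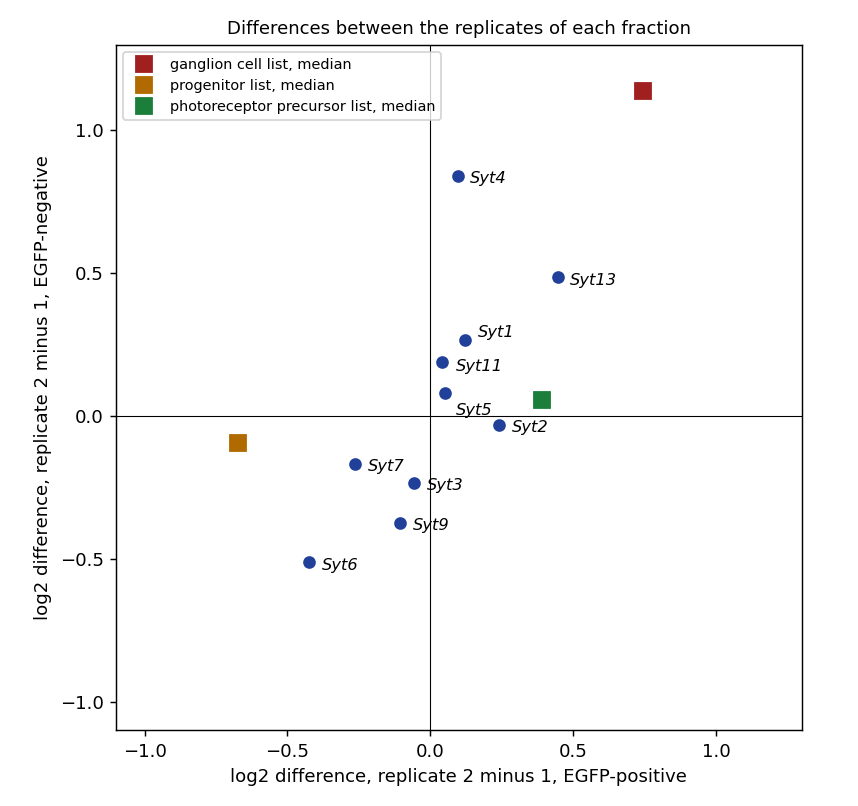
Log2 difference of replicate 2 minus replicate 1 in EGFP-positive cells (horizontal axis) and EGFP-negative cells (vertical axis) for the 10 members (blue circles) and the medians of 3 marker lists (squares). Syt13, Syt4, Syt1, Syt5 and Syt11 lie in the same quadrant as the ganglion cell median of 0.74 and 1.14. The photoreceptor precursor median, 0.39 and 0.06, lies in that quadrant too. Syt6, Syt3, Syt7 and Syt9 lie in the opposite one, with Syt6 at -0.42 and -0.51.

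Some genes on the marker lists of other neurons also differed between the fractions. Over all features 47.8% had a positive difference and 0.82% rose past the limma threshold. All 12 amacrine markers had a positive difference, and 2 rose, Tfap2a and Tfap2b, by 1.12 ± 0.14 and 1.06 ± 0.12 on the log2 scale (SE, limma adjusted p = 0.0429 and 0.0399), calls that were lost without positive replicate 2. The summed intensity of the amacrine list was 9972.9 and 9759.7 in positive cells, against 5890.0 and 4687.8 in negative cells. A large part of that gap came from Meis2, which was not called (limma adjusted p = 0.101). Meis2 read 3677.0 and 3436.4 in positive cells, against 1489.2 and 609.8 in negative cells. At the other end of the list, Chat and Th had log2 differences of 0.012 and 0.0040. Of 7 horizontal cell markers 1 rose (Tfap2a again) and of 10 bipolar markers 2 rose, Neurod4 and Otx2, which photoreceptor precursors share. Syt1 is expressed in most neurons, and the part of these cells in its difference was not tested. None of the 7 endothelial, 7 microglial and 7 pigment epithelium markers was called by limma. At an unadjusted p under 0.05 limma took 0, 1 and 1 of them, against 19.2% of all features.

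The other 7 synaptotagmin genes of the array gave a similar count of calls. None was called by limma, against 0.963% of all features. At an unadjusted p under 0.05 limma took 1, Syt14, against 19.2% of all features. The fractions did not overlap for 2 genes above and 2 below, against 22.3% and 25.3% of all features. Syt14, a member without calcium-binding residues, read 542.9 and 702.8 in positive cells, against 302.5 and 453.2 in negative cells. Its positive arrays both lay above the negative ones, with a log2 difference of 0.74 ± 0.23 (SE, limma adjusted p = 0.185). Syt10, known from the release of insulin-like growth factor in the olfactory bulb, read 115.9 and 86.1 in positive cells, against 129.6 and 137.4 in negative cells (log2 difference -0.42 ± 0.17, SE, limma adjusted p = 0.262).

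Genes that work beside the synaptotagmins included members that rose. Over 5 lists of other synaptotagmins, C2-domain relatives, SNARE fusion genes, vesicle proteins and calcium channel subunits, 5 of 75 measured genes rose and 0 fell, against 0.82% and 0.143% of all features. In the SNARE list, where 24 of 28 genes were measured, Stx3 rose, the syntaxin of ribbon synapses. Stx3 read 466.4 and 478.9 in positive cells, against 205.5 and 211.4 in negative cells (log2 difference 1.18 ± 0.10, SE, limma adjusted p = 0.0174). Snap25, a SNARE partner of Syt1 that was chosen after its values were seen, read 2185.3 and 3321.2 in positive cells, against 418.0 and 693.3 in negative cells. Its fractions were far apart, yet it did not pass the threshold (log2 difference 2.32 ± 0.31, SE, limma adjusted p = 0.0506). The median log2 difference of the SNARE list was 0.26, with 17 differences above 0 and 7 below. At an unadjusted p under 0.05 limma took 15 of the 24, 11 higher and 4 lower, against 19.2% of all features. The lowest difference was that of Vamp3 (-0.65 ± 0.10, SE, limma adjusted p = 0.0663).

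Of the 19 vesicle proteins 2 rose, the transporter-like glycoprotein Sv2b and the membrane protein synaptophysin (Syp). Sv2b read 1410.4 and 1650.6 in positive cells, against 320.1 and 319.4 in negative cells (limma adjusted p = 0.00596). Syp read 1648.6 and 2202.7 in positive cells, against 424.7 and 432.6 in negative cells (limma adjusted p = 0.0133). For both genes every positive array was far above the negative ones, and the median log2 difference of the list was 0.39. Of the 12 measured calcium channel subunits 1 rose, Cacna2d4, an auxiliary subunit of the photoreceptor channel, which read 595.5 and 600.6 in positive cells, against 167.6 and 179.2 in negative cells (limma adjusted p = 0.00690). All 12 differences were above 0, and their median was 0.39 on the log2 scale.

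Among the 13 C2-domain relatives Doc2b rose, a calcium sensor of vesicle release with C2 domains like those of the synaptotagmins. It read 1413.2 and 2243.4 in positive cells, against 185.9 and 200.5 in negative cells, with a 95% interval of the log2 difference from 2.62 to 3.79 (limma adjusted p = 0.0119). That interval lies above the interval of every synaptotagmin gene, the highest bound among which is 1.33, for Syt14. The other 12 relatives had differences between -0.27 and 0.34, and the median of the list was -0.03. Leaving out negative replicate 1 or negative replicate 2 ended every call over all features in limma, while 2346 and 3134 features had an unadjusted p under 0.05, in that order. Leaving out positive replicate 1 gave 7 called SNARE genes.

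**Figure D4:**
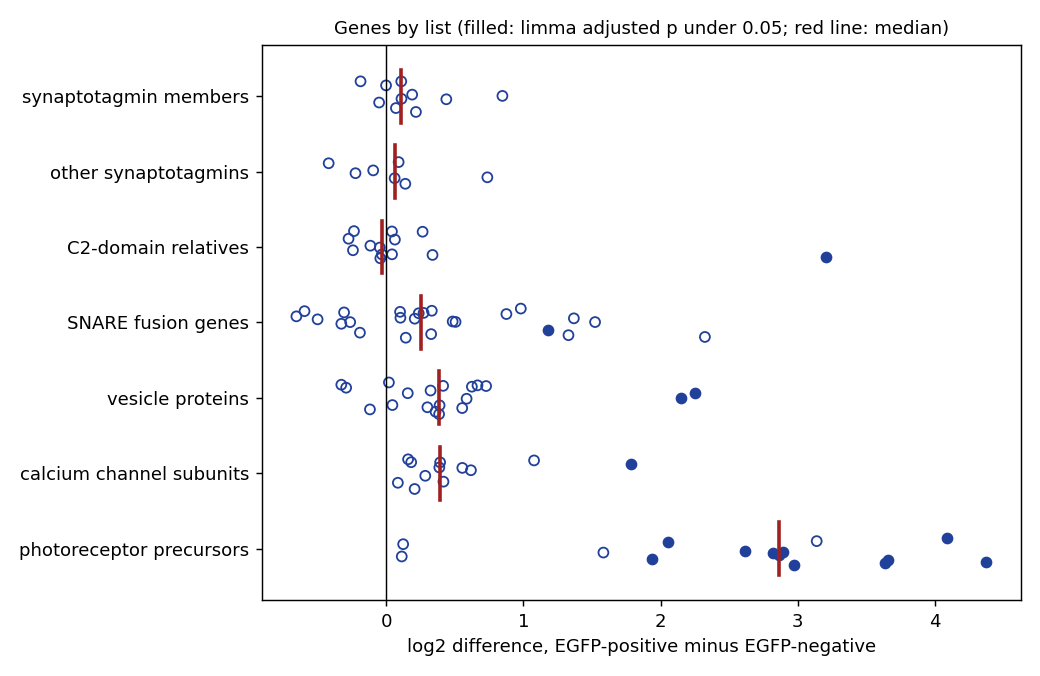
Log2 difference, EGFP-positive minus EGFP-negative, of every measured gene in the synaptotagmin group, the 5 lists of related genes and the photoreceptor precursor markers. Filled circles passed a limma adjusted p of 0.05 and red lines are medians, with values of 0.11 for the synaptotagmin members, -0.03 for the C2-domain relatives and 2.86 for the photoreceptor precursor markers.

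The genes most like Syt1 and Syt11 in pattern were sought among all 18920 genes, as the smallest Euclidean distance over the 4 arrays between log2 values after subtraction of each gene's mean. For Syt1 they were 4833439L19Rik, Acap3, which encodes a GTPase-activating protein of Arf proteins, and Tmem132d, at distances of 0.046, 0.049 and 0.057. Acap3 read 930.2 and 1059.3 in positive cells, against 505.9 and 610.9 in negative cells. For Syt11 they were Glud1, the mitochondrial glutamate dehydrogenase, Tnfaip1 and Olfr1461, at 0.016, 0.016 and 0.017. With 4 arrays such distances only describe these samples.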

How the data were processed

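The authors deposited linear intensity values, 1 column for each of the 4 arrays and no column left unused. Per the submitters' processing notes they were made with RMA and the genome build mm8. The RMA version is not given in the sources used here, nor is any filter. The linear scale was inferred from values of 18.9 to 36625.2, and log2 was taken without a pseudocount. The platform annotation gave 1 symbol for 20176 features, several for 412 and none for 1843. Symbols missing there were sought through Entrez numbers in RefSeq (GRCm38.p6). A gene with several features was represented by the one of highest mean. The test across features used limma 3.58.1 under R 4.3.3 (lmFit, eBayes without trend), positive minus negative, without the replicate number. P-values are two-sided and Benjamini-Hochberg adjusted over 22431 features, with a threshold of 0.05. Intervals are 95% intervals from 5.26 degrees of freedom. Precision is limited by the number of arrays. The fit was tested on simulated data with independent noise on each array, which does not cover replicate effects shared by the fractions.

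The members, the 5 lists of related genes and the 9 marker lists were chosen with earlier results of these data known. All members are named. From each list up to 4 called genes with the largest difference could be named, or the 2 largest where none was called, and the 3 genes most alike in pattern for the members with the largest difference in each direction. Some genes of the lists are not reported here. The alternatives were a replicate block, each array left out, 2 renormalisations, a pseudocount of 16, a filter at the 25th percentile, 2 forms of eBayes and the mean of a gene's features.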

Additional observations from a re-analysis of the deposited data

How the results depend on the processing

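The 12 alternatives gave 120 values for the 10 members, of which 113 kept their direction and 3 passed the threshold. With the replicate block limma called 2 members, Syt1 (0.85 ± 0.10, SE, adjusted p = 0.00978) and Syt6 (0.44 ± 0.10, adjusted p = 0.0405). With each array left out it called 0 to 1 member, Syt1 without positive replicate 1. Over the leave-one-out fits the log2 difference ran from -0.0099 to 0.23 for Syt2, from -0.17 to 0.067 for Syt3, from -0.31 to 0.53 for Syt4, from -0.039 to 0.040 for Syt5 and from -0.17 to 0.31 for Syt13. The other 5 members kept their direction, which for Syt1 and Syt11 could not turn because their fractions do not overlap. With the replicate block 1377 features were called higher and 1500 lower in the positive fraction, in place of 184 and 32. The labels do not say that equal replicate numbers share an animal or sort. Across features the replicate differences of the fractions correlated at 0.48 (Pearson, features not independent), a hint from the data and not from the design. Leaving out 1 array gave 0 to 667 features higher and 0 to 762 lower. Features lower numbered 21 with a trend in eBayes and 51 with the mean of each gene's features. With the replicate block the SNARE list had 12 called genes in place of 1, the vesicle list 7 in place of 2 and the calcium channel list 4 in place of 1. The progenitor list had 9 in place of 1, the amacrine list 5 in place of 2, the horizontal list 4 in place of 1, the ganglion list 3 in place of 0, and the other synaptotagmins, endothelial and pigment epithelium lists 1 each in place of 0. Without positive replicate 1 the counts were 7 for the SNARE, 8 for the progenitor, 4 for the horizontal, 1 for the ganglion and 1 for the endothelial list. Without positive replicate 2 the amacrine and horizontal lists had 0, and without either negative array every list had 0. With a trend the amacrine list had 1. The SNARE list had 4 with arrays centred on their medians, with a robust trend and with the mean of features. The cause of these changes was not tested.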
